A study of Mus musculus with 12 samples.

Results

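Co-stimulatory and checkpoint molecules were followed in macrophages sorted from mouse tumours, by the microarray probes that carry the symbols of 10 genes: Cd274, Pdcd1lg2, Cd80, Cd86, Cd40, Lgals9, Havcr2, Icosl, Cd200r1 and Pvr. These 10 genes have 24 probes on the array, of 21946 genes with a symbol. The cells were CD11b-high macrophages sorted from tumours of C57BL/6 mice, and each RNA sample came from pooled cells. The groups were S1PR1 knockout macrophages from PyMT breast tumours (KO_PyMT), wild-type macrophages from PyMT breast tumours (WT_PyMT), S1PR1 knockout macrophages from MCA fibrosarcomas (KO_MCA) and wild-type macrophages from MCA fibrosarcomas (WT_MCA), with 2 arrays each. S1PR1 is a receptor for the lipid sphingosine-1-phosphate. PyMT mice were female and MCA mice male, and the 2 tumour types sat on different BeadChips, so tumour, sex and BeadChip cannot be told apart among these 8 arrays. The labels do not give the ages of the mice, how the receptor was deleted or in which cells. Another 3 arrays held mixed controls, and 1 repeated the sample of KO_MCA replicate 1 on the PyMT BeadChip.

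A macrophage that presents antigen also shows T cells surface molecules that raise or restrain their response. CD80 and CD86 bind CD28, which promotes T cell activation, and CTLA-4, which restrains it, and the ICOS ligand engages a related receptor. PD-L1, encoded by Cd274, and PD-L2, encoded by Pdcd1lg2, bind the inhibitory receptor PD-1. CD40 receives CD40L from helper T cells and activates the macrophage, while TIM-3, encoded by Havcr2, is an inhibitory receptor for which galectin-9, encoded by Lgals9, is one ligand. CD200R1 restrains myeloid cells after binding CD200, and PVR (CD155) binds the activating receptor CD226 and the inhibitory receptor TIGIT.

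The 12 arrays had a median deposited signal of 83 to 92.5, and 39.6% to 50.2% of probes lay above background, defined as a deposited detection p under 0.05. The only probe of S1pr1 was above background on 0 arrays, so the knockout could not be checked from these data. Replicate spread was unequal: the log2 difference between the 2 arrays of a group had an SD across genes of 0.762 for KO_PyMT and 0.586 for WT_PyMT, against 0.372 for KO_MCA and 0.479 for WT_MCA. Replicate 1 and 2 of KO_PyMT therefore stand furthest apart. Of the 10 macrophage markers listed, 9 passed the detection filter, and all 9 were above background on all 8 group arrays. Defining markers of other cells that were above background on 0 of the 8 arrays were Zbtb46 for dendritic cells, Cd3g, Cd8a and Ncr1 for T and NK cells, Pax5 for B cells, Cxcr2 and Retnlg for neutrophils, Csn2 and Wap for mammary epithelium, Pdgfrb for fibroblasts and Tek for endothelium. Other genes of the same lists were detected. Above background on all 8 arrays were Itgax, Clec9a, Batf3 and Siglech of the dendritic cell list, Klrb1c of T and NK cells, and Csf3r of neutrophils. So were Cdh1 of epithelium, and Pdgfra and Acta2 of fibroblasts. Ccr7 of the dendritic cell list, Cd4, Thy1, Cd79b, Pecam1 and Cdh5 were above it on 7. Nothing in the labels says that the arrays of a group came from separate animals, so p-values measure the spread between these samples, which may be technical.

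Of the 10 genes, 9 passed the detection filter, which asked for a probe above background on at least 2 of the 8 arrays, and 8 of these were above background on all 8 arrays at their brightest probe. Pdcd1lg2 did not pass. Levels are normalized log2 intensities of the gene's brightest probe, on which a difference of 1 is a doubling, and levels of different probes are not comparable. No gene of the 9 differed between knockout and wild-type macrophages, or between PyMT and MCA macrophages, at an adjusted p under 0.05 in limma, with adjustment over 14103 genes. Among all genes, 0% passed for knockout against wild type, whether within PyMT, within MCA or over the 2 tumours together, and 0% for the difference of the effect between tumours. For PyMT against MCA over both genotypes, 0.163% passed. The sharpest patterns among the 9 were lower Cd40 in knockout macrophages, lower Havcr2 in knockout macrophages of PyMT tumours, and higher Icosl in PyMT macrophages, and none of them passed this test. In bulk samples, fewer cells of a type and less RNA per cell cannot be told apart.

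**Figure D1:**
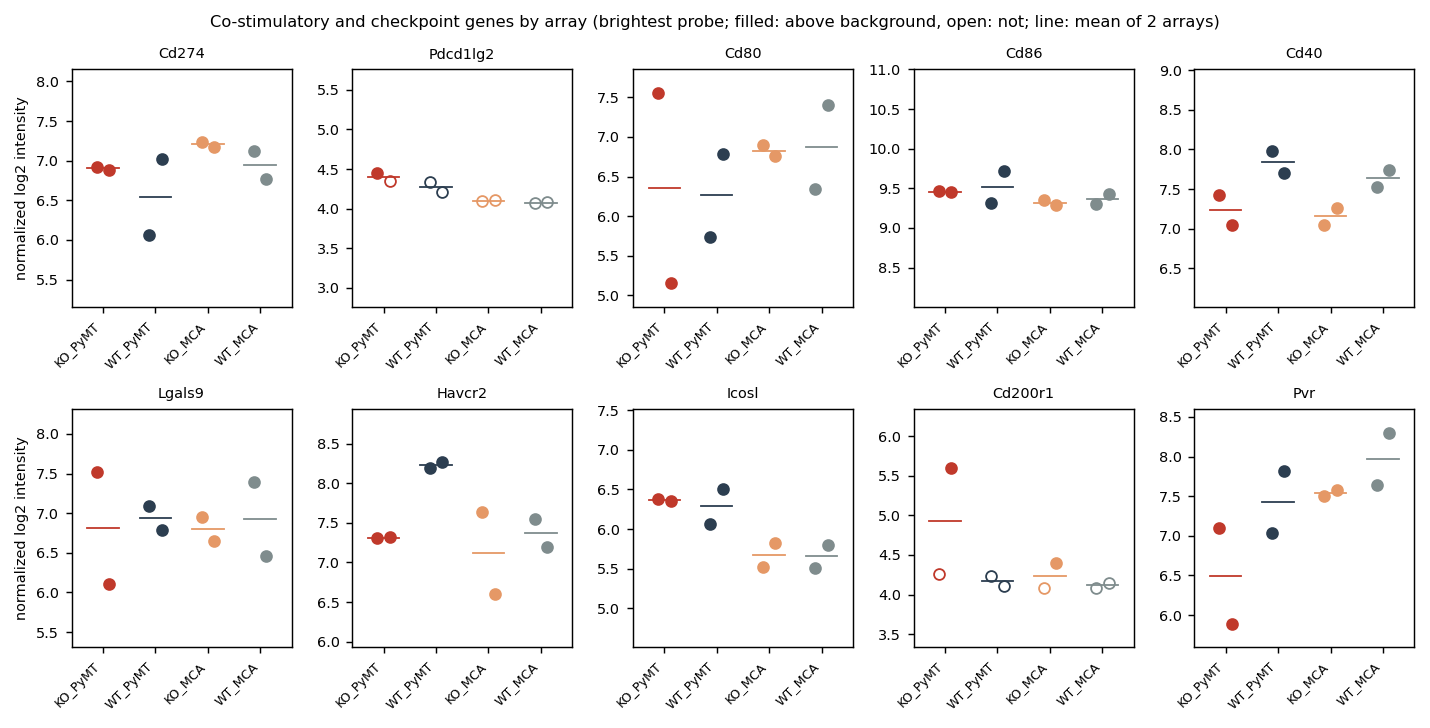
Normalized log2 intensity of the brightest probe of each of the 10 genes, 1 dot per array and 2 arrays per group, with a line at the mean of the 2 arrays; filled dots are above background and each panel spans the same number of log2 units. Cd40 lies between 7.05 and 7.42 on the 4 knockout arrays and between 7.52 and 7.98 on the 4 wild-type arrays, whereas the Cd80 values of KO_PyMT are 7.55 and 5.16.

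Cd40 had lower values in knockout macrophages of both tumours. Its level was 7.42 and 7.05 in KO_PyMT, against 7.98 and 7.70 in WT_PyMT. In MCA macrophages it was 7.05 and 7.26 in KO_MCA, against 7.52 and 7.74 in WT_MCA. All 4 knockout arrays lay below all 4 wild-type arrays, a pattern shown in this direction by 1.23% of the 14103 genes. The mean difference was −0.61 ± 0.22 (SE) in PyMT and −0.48 ± 0.22 in MCA, with 2 arrays per group, and −0.36 in PyMT with the mean of its probes. Over both tumours it was −0.54 ± 0.15 with a 95% interval of −0.89 to −0.19, which is 1.46-fold lower in knockout macrophages. In limma its unadjusted p over both tumours was 0.00742 and its adjusted p 0.930, and 5.12% of all genes had an unadjusted p under 0.05 there, as 1 of the 9 did.

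Cd40 has 5 probes on the array, and 4 of them had lower means in knockout macrophages in both tumours. The probe ILMN_2488266 read −0.36 in PyMT and −0.24 in MCA, knockout minus wild type, and its knockout arrays also lay below all wild-type arrays. ILMN_2496288 read −0.77 in PyMT and −0.47 in MCA, and was above background on 6 of the 8 arrays. ILMN_2502136 read −0.46 in PyMT and −0.50 in MCA. The remaining probe, ILMN_2503129, went the other way in PyMT, at 0.39 ± 0.19, and read −0.31 ± 0.19 in MCA. Which transcripts each probe detects was not analysed here.

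The macrophage markers were set beside Cd40. Itgam, which encodes the CD11b used for the sort, was 7.04 and 6.39 in KO_PyMT, against 7.59 and 7.51 in WT_PyMT. For MCA it was 7.78 and 7.74 in KO_MCA, against 8.16 and 8.23 in WT_MCA. The Itgam difference over both tumours was −0.63 ± 0.18 (adjusted p = 0.930 in limma). Of the 9 macrophage markers measured, 7 had lower means in knockout macrophages over both tumours, with a median of −0.21, and 0 passed the test; median scaling, used in place of quantile normalization, gave 6 of 9. Within PyMT 4 had higher and 5 lower means, and within MCA 2 had higher and 7 lower means. The mannose receptor gene Mrc1 differed by 0.79 ± 0.41 in PyMT. It was 9.10 and 9.16 in KO_PyMT, against 7.76 and 8.91 in WT_PyMT. The summed linear signal of the 9 macrophage markers was 3976 to 4015 in KO_PyMT, against 3678 to 4225 in WT_PyMT. In MCA tumours it was 4851 to 5178 in KO_MCA, against 4989 to 5532 in WT_MCA. Of 6 monocyte markers measured, 2 had higher and 4 lower means in knockout macrophages over both tumours, with a median of −0.17 and 0 called. Their summed linear signal was 506.6 to 581.8 in KO_PyMT, against 714 to 814.2 in WT_PyMT. In MCA it was 722.3 to 790.7 in KO_MCA, against 873.7 to 1019 in WT_MCA. The part of the macrophage and monocyte markers in the Cd40 difference was not tested.

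Downstream of CD40, a list of 15 genes of its signalling through TRAF proteins to NF-kappaB had 13 measured. Over both tumours 7 had higher and 6 lower means in knockout macrophages, with a median of 0.015 and 0 called, and the authors' normalized values gave 6 higher and 7 lower. Birc3, which encodes an inhibitor of apoptosis that binds TRAF2, had a difference of 0.74 ± 0.26 in PyMT and 0.17 ± 0.26 in MCA (adjusted p = 0.384 in PyMT, limma). Traf1, a TRAF adaptor, differed by 0.55 ± 0.26 in PyMT and Nfkb1, a subunit of NF-kappaB, by 0.81 ± 0.38. In MCA Traf1 differed by 0.043 ± 0.26 and Nfkb1 by 0.30 ± 0.38. The genes of this list were divided in direction.

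Havcr2 differed most in the PyMT tumours. Its level was 7.31 and 7.32 in KO_PyMT, against 8.19 and 8.27 in WT_PyMT. Its MCA level was 7.63 and 6.60 in KO_MCA, against 7.55 and 7.19 in WT_MCA. The PyMT groups were well apart, while the 2 KO_MCA arrays fell on both sides of the WT_MCA arrays. The difference in PyMT was −0.91 ± 0.34 with a 95% interval of −1.72 to −0.10, 1.88-fold lower in knockout macrophages, with an unadjusted p of 0.0328 and an adjusted p of 0.404 in limma. In MCA it was −0.25 ± 0.34 (adjusted p = 1 in limma). The difference between the 2 tumours in this effect was −0.66 ± 0.48, with an adjusted p of 0.932 in limma, so an effect particular to PyMT tumours was not shown.

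The second Havcr2 probe gave a tighter picture. ILMN_2909597 read 7.0 and 6.81 in KO_PyMT, against 7.80 and 7.56 in WT_PyMT. It read 7.02 and 6.63 in KO_MCA, against 7.08 and 7.17 in WT_MCA. All 4 knockout arrays lay below all 4 wild-type arrays at this probe, by −0.77 in PyMT and −0.30 in MCA, and 1.11% of the 26748 single probes did so. At the probe level 0 of 26748 probes passed limma for knockout against wild type.

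Lgals9, the galectin-9 gene, was uneven across its probes. The brightest probe read 7.52 and 6.11 in KO_PyMT, against 7.09 and 6.78 in WT_PyMT. From MCA tumours it read 6.95 and 6.65 in KO_MCA, against 7.39 and 6.46 in WT_MCA. The groups overlapped in both tumours, and the difference over both was −0.12 ± 0.33 (adjusted p = 0.975 in limma). At ILMN_2778043 both KO_PyMT arrays, at 4.11 and 4.07, were not well above background, and both WT_PyMT arrays were above it, at 6.56 and 5.25. That is at least 3.0-fold lower in KO_PyMT at this probe, with an adjusted p of 0.279 over all probes in limma. At ILMN_2716602 the difference was −0.76 in PyMT and −0.18 in MCA. All 3 Lgals9 probes had lower means in knockout macrophages in both tumours.

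**Figure D2:**
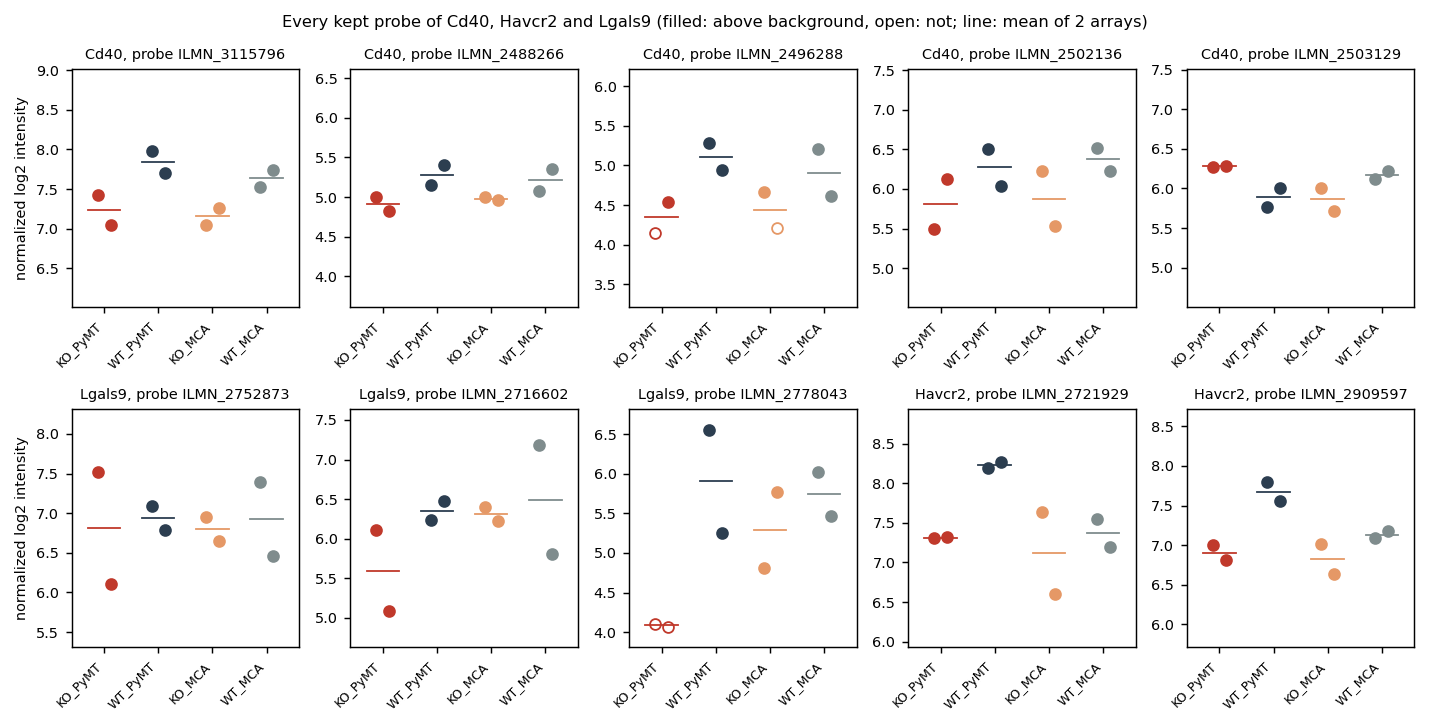
Normalized log2 intensity of every probe of Cd40, Havcr2 and Lgals9, 1 dot per array and 2 arrays per group, with a line at the mean; filled dots are above background. At ILMN_2503129 of Cd40 the KO_PyMT mean is 6.28 and the WT_PyMT mean 5.89, opposite in direction to the other Cd40 probes, and at ILMN_2778043 of Lgals9 the KO_PyMT arrays are below background.

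A further list held 10 genes of the TIM and galectin families or linked to them, such as Bag6 and Lgals3bp, and 8 were measured. In knockout macrophages over both tumours 2 had higher and 6 lower means, with a median of −0.10 and 0 called. The 2 were Bag6 and Havcr1, and Havcr1 was above background on 1 array of each knockout group and on 0 wild-type arrays. Between the tumours Lgals1, a galectin made by many stromal and myeloid cells, had a difference of −0.85 ± 0.15 in PyMT against MCA (adjusted p = 0.0841 in limma, and 0.0446 with the authors' normalized values). Lgals3, a galectin abundant in macrophages, differed by 0.62 ± 0.19 between PyMT and MCA.

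The promoters of Havcr2 and Lgals9 are shown because TIM-3 and its ligand are the receptor and ligand pair measured here. They run from 250 bases before to 50 bases after the gene's start, 5′ to 3′ on the gene's strand, from RefSeq on GRCm38.p6. Havcr2 lies on the plus strand at chr11:46454681-46454980 and Lgals9 on the minus strand at chr11:78984875-78985174. Capitals mark matches, on either strand, to the core GAGGAA of PU.1, a transcription factor of macrophages, and to the core of the interferon-stimulated response element, searched as GAAA, any 2 bases and GAAA.
Havcr2: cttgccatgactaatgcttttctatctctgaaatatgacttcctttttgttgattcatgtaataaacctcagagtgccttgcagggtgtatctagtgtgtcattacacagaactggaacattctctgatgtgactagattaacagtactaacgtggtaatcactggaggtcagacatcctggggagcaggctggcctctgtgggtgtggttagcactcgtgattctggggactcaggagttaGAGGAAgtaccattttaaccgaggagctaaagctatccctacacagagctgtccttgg
Lgals9: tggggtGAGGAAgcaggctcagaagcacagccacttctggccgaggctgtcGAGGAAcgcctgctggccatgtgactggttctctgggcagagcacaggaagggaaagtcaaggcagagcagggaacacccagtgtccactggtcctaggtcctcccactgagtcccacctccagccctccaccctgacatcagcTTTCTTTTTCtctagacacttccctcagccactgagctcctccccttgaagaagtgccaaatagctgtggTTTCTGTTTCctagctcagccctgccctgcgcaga
The Havcr2 window held 1 PU.1 core, which starts at position −8 from the gene's start. The Lgals9 window held 2 PU.1 cores and 2 response element cores, none of them overlapping. Of 32534 mouse promoter windows of the same length, 28.1% held the PU.1 core and 3.45% the response element core. Of the 10 genes 6 had a promoter in the table. The NF-kappaB consensus GGGRNNYYCC and the STAT element TTCNNNGAA were also searched. Here N is any base, R is A or G, and Y is C or T. Both had 0 matches in the Havcr2 and Lgals9 windows, and the Havcr2 window held 0 response element cores. All of these motifs had 0 matches in Cd274 and Cd80, while Pdcd1lg2 held 1 PU.1 core and an NF-kappaB match at position −244. A match is a run of letters and was not tested for binding.

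Cd80 and Cd86, the ligands of CD28 and CTLA-4, did not separate the genotypes. Cd86 had 9.46 and 9.46 in KO_PyMT, against 9.32 and 9.72 in WT_PyMT. For MCA it had 9.35 and 9.29 in KO_MCA, against 9.31 and 9.43 in WT_MCA. Its values were close on all 8 arrays, and the difference in PyMT was −0.06 ± 0.20 with a 95% interval of −0.54 to 0.42. Cd80 had 7.55 and 5.16 in KO_PyMT, against 5.74 and 6.79 in WT_PyMT. The gap of 2.39 between the 2 KO_PyMT arrays was larger than any difference between group means, which was 0.09 ± 0.79 in PyMT. Within MCA, Cd80 had 6.89 and 6.76 in KO_MCA, against 6.34 and 7.40 in WT_MCA. The second Cd80 probe read 0.20 in PyMT and −0.26 in MCA, knockout minus wild type, and the other 2 Cd86 probes read −0.11 and 0.033 in PyMT.

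Cd274, the PD-L1 gene, was above background on all 8 arrays. It had 6.92 and 6.89 in KO_PyMT, against 6.07 and 7.02 in WT_PyMT. From MCA tumours it had 7.24 and 7.17 in KO_MCA, against 7.12 and 6.77 in WT_MCA. Knockout arrays lay above wild-type arrays in MCA and between them in PyMT, where the wild-type arrays were 0.95 apart. The difference was 0.36 ± 0.32 in PyMT (adjusted p = 0.743 in limma) and 0.26 ± 0.32 in MCA (adjusted p = 1 in limma). Of 12 listed genes of the interferon-gamma pathway, which induces PD-L1, 11 were measured, and 6 had higher and 5 lower means in knockout macrophages over both tumours, with a median of 0.011 and 0 called. Pdcd1lg2, the PD-L2 gene, has 1 probe, which was above background on 1 of the 8 arrays, KO_PyMT replicate 1, where its level was 4.45. On the other arrays it was not well above background, and no test was made.

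Pvr, which encodes the ligand of CD226 and TIGIT, had lower means in knockout macrophages at its brightest probe. It had 7.10 and 5.89 in KO_PyMT, against 7.03 and 7.81 in WT_PyMT. In the MCA tumours it had 7.50 and 7.58 in KO_MCA, against 7.64 and 8.30 in WT_MCA. The knockout arrays lay below the wild-type arrays in MCA but not in PyMT, where the 2 KO_PyMT arrays were 1.21 apart. The difference was −0.93 ± 0.46 in PyMT (adjusted p = 0.550 in limma) and −0.43 ± 0.46 in MCA (adjusted p = 1 in limma). The PyMT value was −1.53 without KO_PyMT replicate 1, −0.32 without KO_PyMT replicate 2 and −0.29 with the mean of probes, and the MCA value −0.76 without WT_MCA replicate 1 and −0.10 without WT_MCA replicate 2. The probe ILMN_2627296 read 0.45 in PyMT and −0.41 in MCA, and ILMN_2972585 read −0.39 in PyMT and −0.55 in MCA, so the probes did not share a direction in PyMT. Pvr is also expressed by stromal and tumour cells. The summed linear signal of 9 fibroblast and sarcoma markers was 454.6 and 223.2 in KO_PyMT, against 272.1 and 231 in WT_PyMT, and 295.8 and 303 in KO_MCA, against 212.4 and 997.2 in WT_MCA. The array with the highest sum, WT_MCA replicate 2, was also the one with the highest Pvr. KO_PyMT replicate 1 had a sum of 454.6 and Pvr at 7.10, with Acta2 at 8.18 and Col1a1 at 4.08. Col1a1 was 4.08 and 4.14 in KO_PyMT, and 4.18 and 4.14 in WT_PyMT. It was 6.27 and 6.34 in KO_MCA, and 4.84 and 8.91 in WT_MCA. WT_MCA replicate 1 had the lowest sum and Pvr at 7.64. The part of such cells in the result was not tested.

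Cd200r1, the inhibitory receptor for CD200, was near background. Its brighter probe was above background on KO_PyMT replicate 2, at 5.59, and on KO_MCA replicate 2, at 4.40. It was above background on 1 of the 2 arrays of each knockout group and on 0 of the 4 wild-type arrays. The gene thus passed the detection filter only through knockout arrays, so no difference between the genotypes is read from it. The other Cd200r1 probe was above background on 0 of 12 arrays. Of 5 listed genes that carry CD200 signals, 5 were measured and 0 were called. Rasa1, a GTPase activator recruited after CD200R1 is engaged, differed by −0.86 ± 0.29 in PyMT but by −0.038 ± 0.29 in MCA. Cd200 itself differed by 1.36 ± 0.47 in MCA but by −0.20 ± 0.47 in PyMT.

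How many genes separated the genotypes was near the share of all genes. Of the 8 genes above background on every array, 2 had knockout and wild-type arrays that did not overlap in PyMT and 3 in MCA, against 35.8% and 30.8% of the 14103 genes. In PyMT 0 were higher and 2 lower, Cd40 and Havcr2, where 17.2% and 18.6% of all genes did so in those directions. In MCA 1 was higher, Cd274, and 2 lower, Cd40 and Pvr, against 15.8% and 15% of all genes. Cd40 was lower without overlap in each tumour separately, as were 3.01% of all genes. An unadjusted p under 0.05 was found for 2 of the 9 in PyMT, where 10.9% of all genes had one, and for 0 in MCA, where 1.57% had one. The PyMT macrophages also differed in how many genes were above background, 9894 to 10247 in KO_PyMT, against 10538 to 11030 in WT_PyMT, and the part of this in the PyMT differences was not tested. The median difference over these 8 genes was −0.091 in PyMT and −0.087 in MCA, beside −0.00094 and −0.00045 for all genes.

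**Figure D3:**
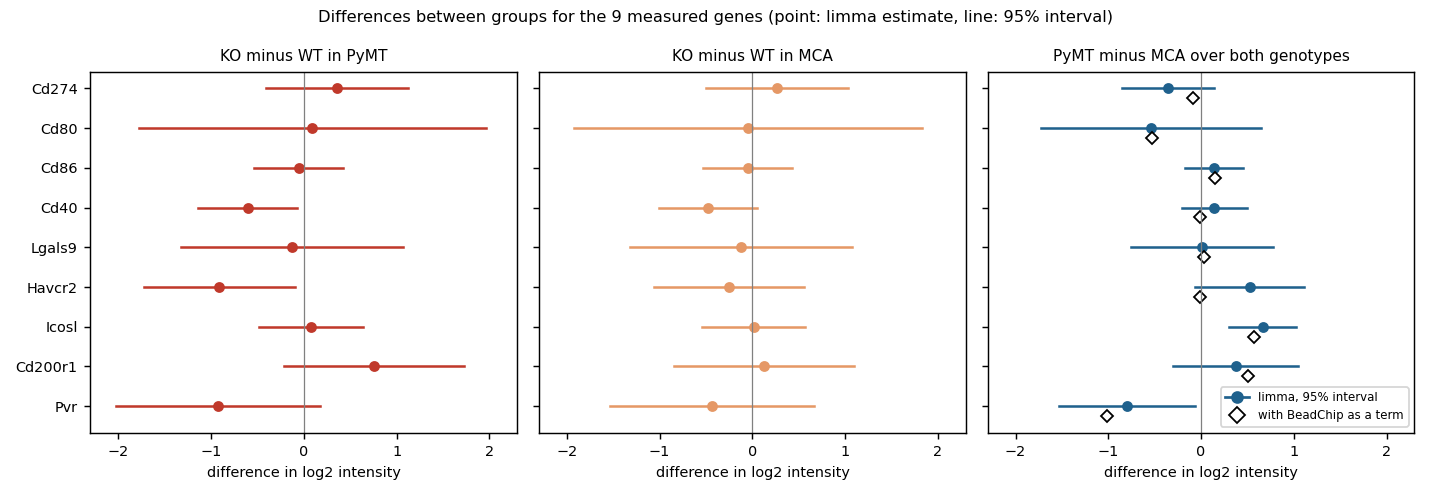
Differences in normalized log2 intensity of the 9 measured genes for knockout minus wild type in PyMT, knockout minus wild type in MCA, and PyMT minus MCA over both genotypes, with 95% intervals from limma; diamonds show the last comparison with BeadChip as a term. Cd40 is at −0.61 in PyMT and −0.48 in MCA, and Icosl at 0.66 for PyMT minus MCA; Cd200r1 passed the detection filter only through knockout arrays.

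Icosl, the gene of the ICOS ligand, had higher values in PyMT than in MCA macrophages and close values in knockout and wild-type macrophages. Its level was 6.37 and 6.35 in KO_PyMT and 6.06 and 6.51 in WT_PyMT. Its MCA level was 5.52 and 5.82 in KO_MCA and 5.51 and 5.80 in WT_MCA. All 4 PyMT arrays lay above all 4 MCA arrays, as they did in this direction for 4.96% of all genes. The difference was 0.66 ± 0.16, or 1.58-fold higher in PyMT macrophages, with an unadjusted p of 0.00296 and an adjusted p of 0.134 in limma. Between genotypes the difference was 0.078 ± 0.23 in PyMT and 0.016 ± 0.23 in MCA. The second Icosl probe read 0.33 for PyMT minus MCA, with an adjusted p of 0.477 in limma over all probes. Its PyMT and MCA arrays overlapped. The authors' normalized values gave an Icosl difference of 0.29.

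The repeated array puts 1 MCA sample on the PyMT BeadChip. There KO_PyMT exceeded the repeated KO_MCA sample by 0.59 in Icosl, and with BeadChip as a term the PyMT minus MCA difference of Icosl was 0.57. That term counted the repeat as a further KO_MCA array and did not pair it with its first array. Spread between the KO_MCA arrays therefore enters the 0.57. The repeat itself read 0.25 higher than its first array for Icosl. Markers of dendritic cells, which also express the ICOS ligand, were set beside it. All 9 measured had higher means in PyMT macrophages over both genotypes, with a median of 0.70 and 0 called, and within knockout macrophages 6 had higher and 3 lower means. Of these 9 markers 4 were above background on all 8 arrays, and Zbtb46, which did not pass the filter, was above it on 0. Their summed linear signal was 500.9 to 720.5 in KO_PyMT and 645.1 to 719.8 in WT_PyMT, against 287.6 to 291.5 in KO_MCA and 288.5 to 360.1 in WT_MCA. Of 7 epithelial and mammary markers 7 had higher means in PyMT, and 1 of the 7 was above background on all 8 arrays. Among them only the casein gene Csn3 was called, at an adjusted p of 0.0202 in limma, at least 2.85-fold higher in PyMT. Csn3, and Cd209a of the dendritic cell list, passed the detection filter only through PyMT arrays. No difference between the tumours is therefore read from these 2 genes. Macrophage markers mostly went the other way. Of the 9 measured, 1 had a higher and 8 a lower mean in PyMT macrophages over both genotypes. Their median was −0.32 and 0 were called, and median scaling gave 0 higher and 9 lower. The part of any of these markers or cells in the Icosl difference was not tested.

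The Icosl promoter is shown because this gene had the smallest unadjusted p of the 9 between the tumours. It lies on the plus strand at chr10:78069118-78069417 of GRCm38.p6 in RefSeq. Capitals mark its 1 match to the NF-kappaB consensus, on the minus strand at position −111 from the gene's start. Of the promoter windows, 8.5% held this consensus on either strand. The PU.1 core, the response element core and the STAT element had 0 matches in the Icosl window.
Icosl: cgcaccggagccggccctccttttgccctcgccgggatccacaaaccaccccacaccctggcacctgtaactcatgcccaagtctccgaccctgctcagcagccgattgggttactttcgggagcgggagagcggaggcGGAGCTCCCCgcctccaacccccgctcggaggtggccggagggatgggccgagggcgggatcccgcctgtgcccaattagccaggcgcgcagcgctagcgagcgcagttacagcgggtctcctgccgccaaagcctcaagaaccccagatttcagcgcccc

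None of the other 8 measured genes had PyMT arrays wholly above or below the MCA arrays. Pvr was lower in PyMT macrophages, at −0.80 ± 0.32 (adjusted p = 0.299 in limma), −1.02 with BeadChip as a term and −0.31 with the mean of probes. Havcr2 differed by 0.53 ± 0.25 and Cd40 by 0.14 ± 0.15, and with BeadChip as a term by −0.0072 and −0.0093. Because that term does not pair the repeat with its first array, these shifts also hold the spread between the KO_MCA arrays. The repeat minus its first array was −0.15 in Havcr2 and 0.23 in Cd40. Median scaling gave −0.12 for Cd40, while it moved the median of all genes by −0.13. Cd274 differed by −0.35 ± 0.21 and Cd80 by −0.54 ± 0.51. Cd86 differed by 0.14 ± 0.14 (−0.11 with median scaling) and Lgals9 by 0.010 ± 0.33 (−0.27 with median scaling). An unadjusted p under 0.05 was reached by 2 of the 9, Icosl and Pvr, and by 15% of all genes.

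The remaining lists of the same pathways were measured in part, and 0 of their genes were called for knockout against wild type in the main normalization. Of 14 other B7, butyrophilin and nectin ligands 10 were measured, and over both tumours 6 had higher and 4 lower means in knockout macrophages, with Nectin1, an adhesion molecule that binds CD96, at 0.73 ± 0.24. Of 7 TNF family co-stimulatory ligands 3 were measured and all 3 had lower means, with a median of −0.48. Tnfsf9, the ligand of the co-stimulatory receptor 4-1BB, differed by −0.89 ± 0.12, with an adjusted p of 0.920 in limma. All 4 knockout arrays lay below all 4 wild-type arrays, as they did for 1.23% of all genes. With the authors' normalized values the Tnfsf9 difference was −0.76 and its adjusted p 0.0345 in limma. Without background correction these were −0.75 and 0.0447, so its call depended on the processing. In each of these runs 2 of the 14103 genes were called. Of 18 genes listed under other inhibitory receptors of macrophages 10 were measured, 4 with higher and 6 with lower means in knockout macrophages. Cd300lf, an inhibitory receptor of the CD300 family, was at −0.64 ± 0.25.

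Receptors on T cells for these ligands were next. Of 15 listed 8 were measured, and all 8 had higher means in PyMT macrophages than in MCA macrophages (7 of 8 with median scaling), with a median of 0.41 and 0 called, while knockout against wild type gave 4 higher and 4 lower. These probes lay near background: 1 of the 8 genes, Cd226, was above it on all 8 arrays, and Tnfrsf9 was above it on 0 of the 4 PyMT arrays, so the counts of directions rest largely on values at background. Cd226 differed by 0.53 ± 0.24. The summed linear signal of 7 T and NK cell markers was 243.1 to 295.3 in KO_PyMT and 162.1 to 252.5 in WT_PyMT, against 153.1 to 169.9 in KO_MCA and 159.2 to 205.6 in WT_MCA. In the list of inhibitory receptors Fcgr2b, an IgG receptor, was at −0.74 ± 0.13 for PyMT minus MCA (adjusted p = 0.0833 in limma, and 0.0289 with the authors' normalized values). Siglec1, a sialic acid receptor of macrophages placed in the same list, was at −1.88 ± 0.43. Of the 11 interferon-gamma pathway genes measured, 10 had higher and 1 a lower mean in PyMT macrophages (7 and 4 with median scaling), with a median of 0.20 and 0 called.

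For the 5 of the 8 genes above background on every array whose level spanned more than 1 log2 unit, the most similar profiles were sought by the root mean square difference of centred log2 values over the 8 arrays, among 6951 genes. Havcr2 was closest to Spsb1 at 0.125 and Phkb at 0.166. Cd274 was closest to Idi1 at 0.102 and Ccnc at 0.114. Pvr was closest to 4930599N23Rik at 0.147 and Emsy at 0.185. Lgals9 was closest to Zdhhc6 at 0.169 and Rnf34 at 0.172, and Cd80 to Rdh11 at 0.299 and Ern1 at 0.333. These are descriptions over 8 arrays that share groups and BeadChips.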

How the data were processed

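RNA of pooled sorted macrophages was measured on 12 single-colour Illumina arrays on 2 BeadChips, 8 of them in the 4 groups described. Per the labels' protocols the RNA was amplified, by 1 or both of 2 systems that they name. The deposited intensity per probe is the bead signal, neither normalized nor background-subtracted, per the file headers. The deposited detection p-value tests that signal against background, by a test that no source used here names. The authors also deposited a normalized intensity by a method not given here, which served as an alternative. The number of arrays limits the precision.

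All log2 values were computed here from the deposited intensity with neqc of limma 3.58.1 in R 4.3.3 (tables read by data.table, version 1.17.8), which corrects background with the detection p, adds an offset of 16 and quantile normalizes, over all 12 arrays. In the platform annotation 35784 of the 46237 probes carried 1 gene symbol, 0 carried several and 10453 were unlisted; RefSeq names updated 937 symbols and 4527 kept the platform's. Probes with a detection p under 0.05 on at least 2 of 8 group arrays were kept, 26748 in all, and the brightest probe stood for each of 14103 genes. A 4-group limma model (residual df 4, prior df 2.75) tested genotype within each tumour, and an additive model (residual df 5, prior df 2.92) genotype over both tumours and tumour over both genotypes. Two-sided p-values received Benjamini-Hochberg adjustment across all genes. For a group wholly below background, a fold bound used each array's dimmest above-background probe signal or, where higher, the probe's own. The scripts were tested on simulated data.

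The members, lists and markers were chosen with earlier results of these data known. All 10 genes were named with every probe. List genes were named for up to 4 with the smallest unadjusted p in a contrast, and 2 similar profiles per gene with a span over 1. Marker genes were named where called, at background on every array, or above background on most arrays. Itgam, Mrc1, Cd209a, Acta2 and Col1a1 were discussed outside these rules. The mixed arrays entered no comparison. Replicate numbers did not pair the samples. Promoter sequences are RefSeq's on GRCm38.p6, for the 6 genes with an entry.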

Additional observations from a re-analysis of the deposited data

Results flagged for a closer look

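The Cd40 probe ILMN_2503129 stood out because its knockout and wild-type arrays separated in opposite directions in the 2 tumours. Its mean was 6.28 in KO_PyMT, against 5.89 in WT_PyMT, and 5.86 in KO_MCA, against 6.17 in WT_MCA, and it was above background on all 8 arrays. The effect in PyMT minus the effect in MCA was 0.70 ± 0.27 (SE), with an unadjusted p of 0.0378 and an adjusted p of 0.840 in limma over all probes, so the difference between tumours was not called. The other 4 Cd40 probes had lower knockout means in both tumours.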

How the results depend on the processing

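No gene of the 9 was called in any comparison under any alternative run: other background corrections, median scaling, the authors' normalized values, no detection filter or a filter on all 8 arrays, the mean of probes, array weights, mixed or repeat arrays added, BeadChip as a term, only the arrays compared, and leaving out each array. With the replicate number as a block, a pairing the data did not bear out (correlations −0.0396 to 0.0790), 0 of the 9 were called in each comparison, and among all genes 21 instead of 23 for PyMT against MCA and 0 for knockout against wild type within either tumour or over both. Counts over all genes moved more: PyMT against MCA gave 3 with BeadChip as a term, 14 with the filter on all 8 arrays, 38 with normexp, 44 with the authors' values, 46 with mixed arrays, 47 without background correction, 78 with median scaling, 8 on leaving out either KO_MCA array, 9 on leaving out WT_MCA replicate 2 and 14 on leaving out WT_PyMT replicate 1. Knockout against wild type in PyMT gave 0, but 4 with no detection filter, 6 with the authors' values, 7 without background correction, 10 with mixed arrays, 108 without KO_PyMT replicate 1 and 33 without KO_PyMT replicate 2. Over both tumours, knockout against wild type gave 0, but 2 with the authors' values and 2 without background correction. Median scaling moved the median of all genes for PyMT against MCA to −0.13.

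Some values changed sign. For PyMT against MCA, Cd40 gave −0.0093 with BeadChip as a term and −0.12 with median scaling, Havcr2 −0.0072 with BeadChip, Cd86 −0.11 with median scaling, and Lgals9 −0.058 with array weights, −0.31 with the mean of probes and −0.27 with median scaling. For knockout against wild type, Cd80 over both tumours gave −0.0039 with the mean of probes, Cd86 in PyMT 0.021 with median scaling, and Icosl with the mean of probes −0.0047 in PyMT, −0.063 in MCA and −0.034 over both; Icosl in MCA gave −0.0012 with the authors' values and −0.00091 with median scaling. Leaving out each array gave −0.11 to 0.84 for Cd274 in PyMT, −0.032 to 0.28 for Cd200r1 in MCA, −0.77 to 0.26 for Havcr2 in MCA, and −1.11 to 1.29 in PyMT, −0.58 to 0.48 in MCA and −0.47 to 0.49 over both for Cd80. It gave −0.26 to 0.14 in PyMT, −0.11 to 0.012 in MCA and −0.13 to 0.028 over both for Cd86, and −0.15 to 0.30, −0.13 to 0.17 and −0.049 to 0.13 in the same order for Icosl. For Lgals9 it gave −0.83 to 0.58 in PyMT, −0.59 to 0.34 in MCA, −0.41 to 0.16 over both and −0.27 to 0.29 for PyMT against MCA. The cause was not tested. Cd40 over both tumours stayed between −0.60 and −0.45 without each array, Havcr2 in PyMT between −0.95 and −0.87, and Icosl for PyMT against MCA between 0.58 and 0.76. Signal over background limits Pdcd1lg2 and Cd200r1, which were above background on 1 and 2 of the 8 arrays.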

Other observations

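The mixed control arrays belong to no comparison. Cd274 was 5.77 on the mixed PyMT array and 6.35 and 6.67 on the 2 mixed MCA arrays, and the first of these values lies below all 8 group arrays. Havcr2 was 7.41 on the mixed PyMT array and 7.01 and 7.16 on the mixed MCA arrays. Cd40 was 7.62 on the mixed PyMT array and 7.43 and 7.12 on the mixed MCA arrays, and Icosl 6.16 on the mixed PyMT array and 5.99 and 5.74 on the mixed MCA arrays. No label says what these controls mixed.

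The repeat of KO_MCA replicate 1 on the PyMT BeadChip differed from its first array by −0.28 in Cd274 to 0.25 in Icosl over the 9 measured genes, where the SD of this difference over all genes was 0.282.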
